A study of Mus musculus with 73 samples.

Results

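The genes described here are 32 subunits of the Polycomb repressive complexes, taken by symbol from a polyA RNA-seq count table of mouse embryonic stem (ES) cells. The table held 37310 gene identifiers, of which 16636 passed a filter on low counts, and all 32 Polycomb genes were found and passed. They comprise 6 catalytic and core and 5 accessory genes of Polycomb repressive complex 2 (PRC2), and 21 genes of Polycomb repressive complex 1 (PRC1). Rbbp7 and Bcor lie on the X chromosome and the other 30 on autosomes.

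Polycomb complexes keep developmental genes silent in ES cells by modifying histones: PRC2 methylates lysine 27 of histone H3, and PRC1 attaches ubiquitin to histone H2A. Canonical PRC1 carries a Cbx protein that binds the PRC2 mark and a polyhomeotic (Phc) subunit, whereas variant PRC1 carries Rybp or Yaf2 and does not need the mark to bind. On the inactive X chromosome, variant PRC1 built on Pcgf3 or Pcgf5 is recruited by Xist RNA through hnRNPK, and PRC2 follows.

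The study altered the X-inactivation centre, the X-linked region of the silencing RNA Xist and its antisense partner Tsix, and asked how its domain structure bears on both genes. Of its 73 samples, the 12 RNA-seq libraries are used here. They cover 4 libraries of the 40kb [Tsix-Xist] allele with 2 wild-type libraries named as corresponding to it, and 4 of the 70kb [Xite-Jpx] allele with 2 wild-type libraries of its own. Each allele was represented by 2 clones with 2 replicates each, obtained by transfecting CRISPR plasmids or TALENs.

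All groups shared the male 129/Ola, XY line E14Tg2a, grown undifferentiated on gelatin without feeder cells in serum with leukemia inhibitory factor (LIF). Whether each allele is a deletion or an inversion is not given in the sample titles and genotypes. No label says whether replicates were separate cultures, so p-values measure the spread between these libraries, which may be technical. A clone carries whatever else arose in its founder cell, so with 2 clones an allele and its clones can be told apart only in part.

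Libraries held 34514493 to 46605508 counts. Levels are given as CPM, counts scaled to a common library size with TMM factors, and differences as log2 fold changes with their standard error (SE) from edgeR's quasi-likelihood test. A gene was called when its Benjamini-Hochberg adjusted p over all 16636 genes was under 0.05. Xist RNA, the readout of the edited region, stood at 14.7 to 82.0 CPM in the 40kb libraries, against 0.734 and 0.801 CPM in their wild type. It stood at 4.63 to 8.75 CPM in the 70kb libraries, against 0.832 and 2.25 CPM in theirs.

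The libraries also differed in markers of other cell types. Summed fibroblast markers (15 genes) came to 16.3 to 61.3 CPM in the 40kb libraries, against 306 and 405 CPM in their wild type, and summed trophoblast markers (10 genes) to 24.1 to 52.8 CPM, against 440 and 582 CPM. In the 70kb set the fibroblast sums were 60.5 to 626 CPM in the edited libraries, against 96.5 and 359 CPM in wild type, and the trophoblast sums 96.6 to 754 CPM, against 115 and 444 CPM. In the 40kb comparison 10 of 14 tested fibroblast and 6 of 9 tested trophoblast markers were called lower, beside 5.67% of all tested genes. A marker near 0 in 40kb can pass the low-count filter through the other groups, and could hardly be called other than lower. Against the 70kb-set wild type no gene of the table was called, these markers included. Of the markers with a 0, Cdx2 had no count in either library of 40kb clone 1, Col3a1 and Ccdc80 none in 2 of the 40kb libraries, Dcn and Gata3 none in 1 and Elf5 none in 3 of them. Postn had none in 3 libraries of 40kb, 1 of 70kb and 1 of the 70kb-set wild type, and Lum none in 3 of 40kb, 2 of 70kb and both of the 70kb-set wild type. Every one of the 12 ES cell markers had counts in all libraries, with sums of 6602 to 8262 CPM in 40kb against 4852 and 5817 CPM in its wild type. The part of these cells in the Polycomb results was not tested beyond the values given with them. In bulk RNA, fewer cells of a type and less RNA per cell cannot be told apart.

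The first library of 40kb clone 1 stood apart from the other 3 of its allele. Among the 4 it was the lowest for 18 of the 32 Polycomb genes and the highest for 6. Among all tested genes it was the lowest for 36.8% and the highest for 37.8%. It was at an end for 75% of the Polycomb genes, beside 74.6% of all tested genes. Without it Yaf2 and Pcgf5 kept their calls (edgeR adjusted p = 0.0347 and 0.0411). Phc2 was then not called (log2 fold change -1.02, edgeR adjusted p = 0.0544). In the 70kb allele the second library of clone 2 was at an end of its group for 21 Polycomb genes (65.6%), 14 lowest and 7 highest. Among all tested genes it was at an end for 66.3%, 32.9% lowest and 33.4% highest.

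In the 40kb cells, 3 of the 32 Polycomb genes fell and none rose. Yaf2, Pcgf5 and Phc2 dropped to about the same degree, between 2.29-fold and 2.71-fold lower than in the corresponding wild type. They belong to different modules: an adaptor of variant PRC1, a Pcgf subunit of variant PRC1 and a polyhomeotic subunit of canonical PRC1. The share called was 9.38% of the Polycomb genes, beside 6.43% of all tested genes, 0.763% higher and 5.67% lower, and 7 had an unadjusted p under 0.05, beside 23.5% of all tested genes. Both shares were near those of the whole table. The median log2 fold change of the 32 genes was 0.12, beside 0.06 over all tested genes, and the range ran from -1.44 (Yaf2) to 0.62 (Eed). Of the 32 genes 21 had a log2 fold change above 0, beside 56.2% of all tested genes. The median size of the change, whatever its sign, was 0.27 for the Polycomb genes and 0.29 for all tested genes. Without TMM factors the median of all genes in this comparison moved by -0.12, and directions of small changes are to be read relative to that shift. Then the 3 genes stayed called lower and Rbbp7 was called lower with them. The fibroblast and trophoblast markers were lower in the same 4 libraries. With a score of these markers as a covariate no gene of the table was called, Yaf2, Pcgf5 and Phc2 included.

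**Figure D1:**
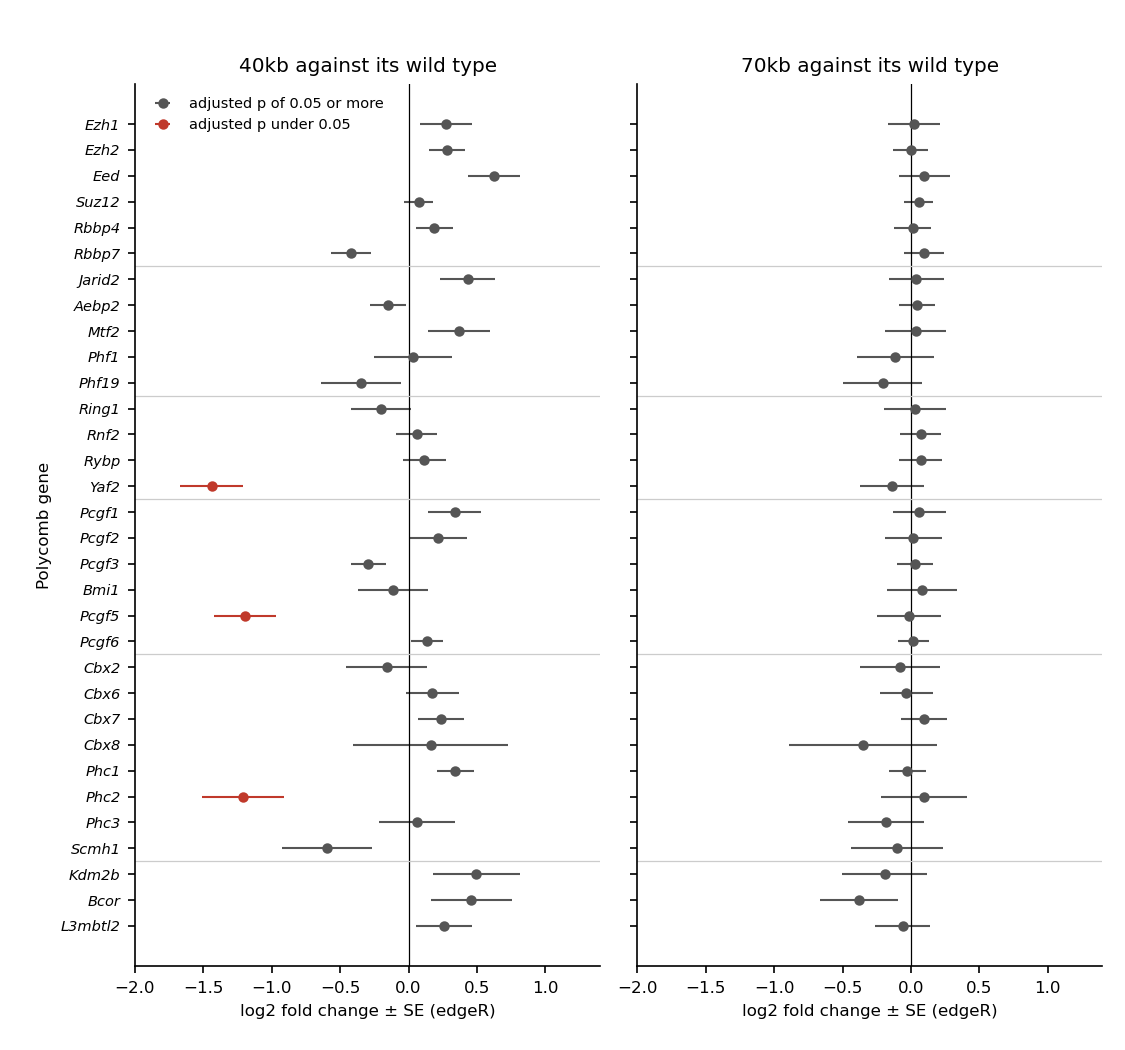
Log2 fold changes (x axis, ± SE from edgeR) of the 32 Polycomb genes (rows, grouped by complex role) for 40kb against its wild type (left) and 70kb against its wild type (right). Yaf2, Pcgf5 and Phc2 stand at -1.44, -1.19 and -1.21 on the left, and no gene is called on the right, where values run from -0.38 to 0.10.

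The core of PRC2 showed no called change. Ezh2 and Ezh1 encode the alternative methyltransferases, Suz12 the scaffold and Eed the subunit that binds the methylated histone. Eed had the highest log2 fold change of the 32 genes, with 479 and 358 CPM for 40kb clone 1 and 306 and 292 CPM for clone 2, against 239 and 227 CPM in wild type. All 4 edited libraries lay above both wild-type libraries, and clone 1 lay above clone 2. The log2 fold change of Eed was 0.62 (SE 0.19, adjusted p = 0.0696 by edgeR), which missed the threshold. It passed with DESeq2, with clone 1 alone and without the second replicate of clone 2. These settings called 1874, 2476 and 1099 genes of the table.

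Ezh2 stood at 227 to 263 CPM in 40kb, against 188 and 215 CPM in wild type, without overlap (log2 fold change 0.28, SE 0.13, edgeR adjusted p = 0.22). Suz12 was the steadiest of the 32 genes, with 297 to 322 CPM in 40kb and 288 and 308 CPM in wild type, and its highest level over all 12 libraries was 1.14 times its lowest. Its log2 fold change was 0.07 with a 95% interval of -0.15 to 0.30. Ezh1 stood at 37.3 to 57.9 CPM in 40kb and at 41.4 and 41.5 CPM in wild type, and these overlapped.

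Rbbp4 and Rbbp7 encode closely related histone-binding subunits that PRC2 shares with other chromatin complexes. X-linked Rbbp7 had 338 and 365 CPM for clone 1 and 317 and 259 CPM for clone 2, against 378 and 478 CPM in wild type. All 4 edited libraries were below both wild-type libraries, by a log2 fold change of -0.42 (SE 0.14), which was not called (edgeR adjusted p = 0.10). Rbbp4 stood at 535 to 646 CPM in 40kb, against 481 and 538 CPM in wild type. Per 100 Rbbp4 counts there were 46.8 to 63.2 Rbbp7 counts in 40kb, against 78.5 and 88.7 in wild type. Such ratios are not corrected for transcript length, so only their differences between libraries carry information. In the 70kb set the same ratio was 61.7 to 82.1 in edited cells and 57.8 and 71.5 in wild type, with overlap.

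The PRC2 accessory genes, which steer the complex to its targets, had no called change and no group without overlap. Mtf2, a Polycomb-like protein that binds CpG-rich DNA, had 803 and 524 CPM for 40kb clone 1 and 453 and 430 CPM for clone 2, against 460 and 396 CPM in wild type. The first library of clone 1 stood well above the other 3. Jarid2, which joins PRC2 in ES cells, stood at 467 to 748 CPM in 40kb, against 422 and 490 CPM in wild type (log2 fold change 0.43, SE 0.20, edgeR adjusted p = 0.22). Aebp2, found with Jarid2 in the same form of PRC2, stood at 101.3 to 112 CPM, against 100 and 134 CPM. The other Polycomb-like genes overlapped too, with Phf19 at 6.55 to 14.8 CPM in 40kb and 12.2 and 15.5 CPM in wild type, and Phf1 at 4.67 to 8.08 CPM and 5.31 and 7.74 CPM.

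Of the ring ligases and their adaptors, 1 of 4 genes was called. Rnf2 (Ring1b), the main H2A ubiquitin ligase of ES cells, stood at 130 to 182 CPM in 40kb and at 142 and 146 CPM in wild type. Its log2 fold change was 0.06, with a 95% interval of -0.27 to 0.38. Ring1, its paralogue, stood at 5.71 to 10.3 CPM in 40kb and at 9.66 and 9.69 CPM in wild type.

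Yaf2 (ENSMUSG00000022634.9) encodes the paralogue of Rybp, and one of both occupies the same place in variant PRC1. It had 3.59 and 3.55 CPM for 40kb clone 1 and 4.63 and 4.39 CPM for clone 2, against 10.1 and 11.8 CPM in wild type. All 4 edited libraries lay below both wild-type libraries, and both clones were low. Yaf2 fell 2.71-fold (log2 fold change -1.44, SE 0.23, edgeR adjusted p = 0.0167), the largest fall among the Polycomb genes. Rybp stood at 78.9 to 104 CPM in 40kb and at 80.8 and 95.5 CPM in wild type (log2 fold change 0.12, 95% interval -0.22 to 0.45). There were 3.42 to 4.54 Yaf2 counts per 100 Rybp counts in 40kb, against 10.6 and 14.6 in wild type. The call on Yaf2 held under 15 of 20 alternative settings, but not with counts summed per clone (edgeR adjusted p = 0.0568). The fold change of Yaf2 was below 0 in all 20. With either wild-type library left out its adjusted p was 0.0747 or 0.16.

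The Pcgf subunits decide which kind of PRC1 forms, and 1 of 6 was called. Pcgf5 (ENSMUSG00000024805.8), which builds variant PRC1, had 9.57 and 10.2 CPM for 40kb clone 1 and 9.70 and 10.96 CPM for clone 2, against 20.8 and 25.5 CPM in wild type. The 4 edited libraries were close to each other and all below wild type. Pcgf5 fell 2.29-fold (log2 fold change -1.19, SE 0.23, edgeR adjusted p = 0.0192). The call held under 14 of 20 alternatives, but not with counts summed per clone (edgeR adjusted p = 0.058). The fold change stayed below 0 in all 20. Without either wild-type library the adjusted p was 0.0747 or 0.21. The library labels carry codes of unstated meaning, and the second library of each 40kb clone shares its code with 1 wild-type library. With a block on these codes Pcgf5 was not called (log2 fold change -1.12, SE 0.23, edgeR adjusted p = 0.0515). The first library of each 40kb clone has a code of its own. The blocked effect therefore rests on the second library of each clone only.

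Pcgf3, the closest paralogue of Pcgf5, was also below wild type in every 40kb library but by much less. It had 59.4 and 77.5 CPM for clone 1 and 77.6 and 76.7 CPM for clone 2, against 90.1 and 88.7 CPM in wild type (log2 fold change -0.30, SE 0.13, edgeR adjusted p = 0.18). There were 12.5 to 16.1 Pcgf5 counts per 100 Pcgf3 counts in 40kb, against 23.1 and 28.8 in wild type.

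Pcgf1 of the Bcor and Kdm2b complex stood at 9.94 to 16.3 CPM in 40kb, against 9.94 and 10.7 CPM in wild type. Pcgf6, which works with L3mbtl2 at germline genes, stood at 82.5 to 103 CPM, against 84.5 and 91.9 CPM. Pcgf2 and Bmi1 (Pcgf4) are the Pcgf subunits of canonical PRC1. Pcgf2 stood at 51.1 to 90.8 CPM in 40kb and 64.6 and 67.7 CPM in wild type, and Bmi1 at 7.38 to 10.9 CPM and 9.03 and 10.6 CPM. For all of these the groups overlapped.

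Of the 8 canonical PRC1 readers, polyhomeotics and Scm proteins, 1 was called. Phc2 (ENSMUSG00000028796.10) encodes a polyhomeotic whose SAM domain lets PRC1 polymerise. It had 6.83 and 15.0 CPM for 40kb clone 1 and 13.03 and 13.8 CPM for clone 2, against 27.8 and 28.5 CPM in wild type. The first library of clone 1 was the lowest, and the other 3 were also below wild type. Phc2 fell 2.31-fold (log2 fold change -1.21, SE 0.30, edgeR adjusted p = 0.0361). The call held under 11 of 20 alternatives, fewer than for Yaf2 and Pcgf5. It ended without either replicate of clone 1 (edgeR adjusted p = 0.0544 and 0.0583) and without the first replicate of clone 2 (0.0677). It also ended with counts summed per clone (edgeR adjusted p = 0.058) and without either wild-type library.

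Phc1, which helps gather Polycomb-bound regions in ES cells, differed the other way. It stood at 556 to 700 CPM in 40kb, above 472 and 549 CPM in wild type (log2 fold change 0.34, SE 0.14, edgeR adjusted p = 0.15), and was not called. Per 100 Phc1 counts there were 1.23 to 2.35 Phc2 counts in 40kb, against 5.06 and 6.03 in wild type. Phc3 stood at 20.8 to 50.1 CPM in 40kb and at 27.2 and 35.4 CPM in wild type. Scmh1, a partner of the polyhomeotics, had 7.81 and 19.5 CPM for clone 1 and 17.1 and 18.3 CPM for clone 2, against 21.7 and 25.7 CPM in wild type. All 4 were lower, but with a wide error (log2 fold change -0.60, SE 0.33, edgeR adjusted p = 0.29).

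**Figure D2:**
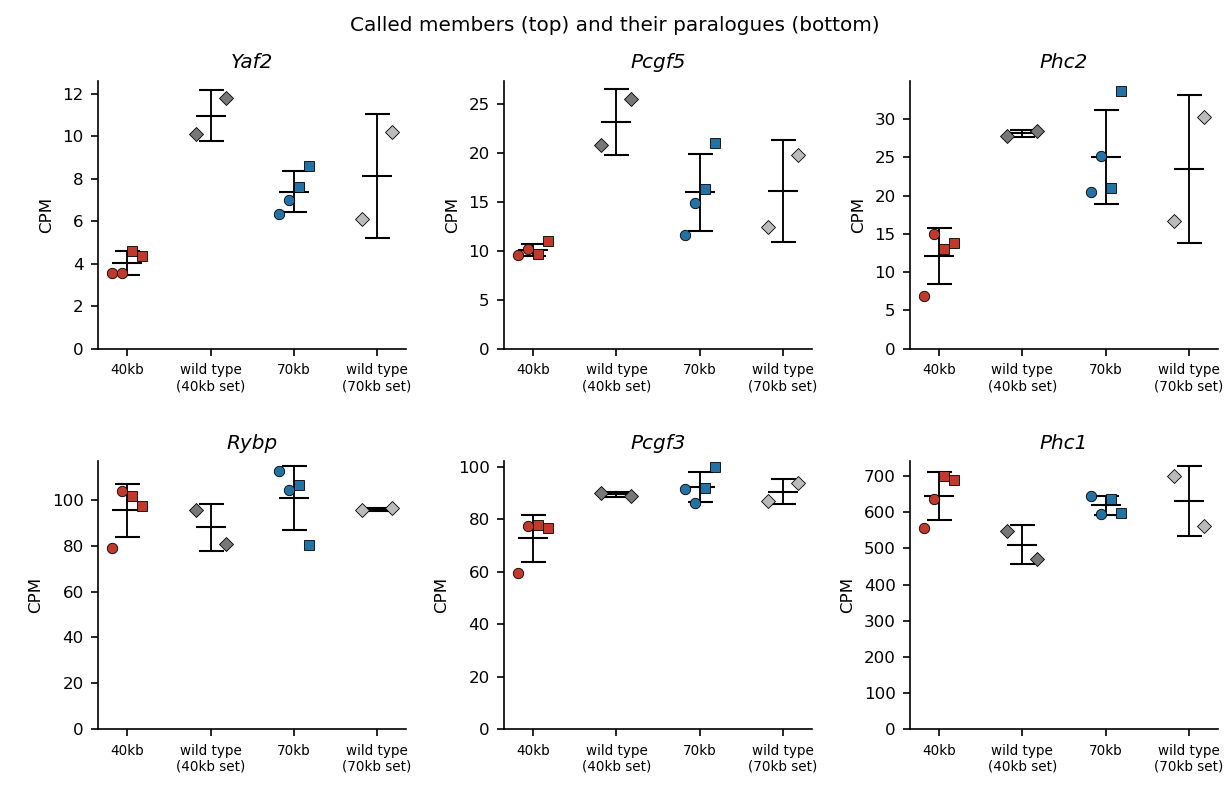
CPM (y axis, from 0) of the 3 called genes (top) and of a paralogue of each (bottom) in the 4 groups, with circles for clone 1, squares for clone 2, diamonds for wild type, and a bar with whiskers for mean ± SD (n = 4 for alleles, n = 2 for wild type). Yaf2, Pcgf5 and Phc2 in the 40kb libraries reach at most 4.63, 10.96 and 15.0 CPM, below all other libraries, whereas those of Rybp overlap with all other groups.

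The Cbx proteins read the PRC2 mark. Cbx7, the main reader of ES cells, stood at 200 to 298 CPM in 40kb and 205 and 225 CPM in wild type. Cbx6 stood at 46.1 to 83.2 CPM and 60.4 and 66.0 CPM, and Cbx2, which also compacts chromatin, at 12.9 to 32.5 CPM and 25.5 and 27.8 CPM. Cbx8, a reader linked to differentiation, had 6 to 26 counts in 40kb libraries and 10 and 18 in wild type, and at that depth its log2 fold change of 0.16 had an SE of 0.56. None of the 4 was called and all overlapped.

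The 3 partners of variant PRC1 had positive log2 fold changes against the corresponding wild type and no call. Kdm2b, which brings PRC1 to unmethylated CpG islands, gave 0.49 (SE 0.32). Bcor, the X-linked scaffold of the Pcgf1 complex, gave 0.46 (SE 0.30), and L3mbtl2 of the Pcgf6 complex 0.26 (SE 0.20). In each the groups overlapped, and Bcor had 44.8 and 81.2 CPM for clone 1 and 87.9 and 76.5 CPM for clone 2, against 57.8 and 47.8 CPM in wild type. All 3 were lower in the 40kb-set wild type than in the 70kb-set wild type, without overlap. Set against the 70kb-set wild type, the 40kb log2 fold change turned to -0.17 for Bcor and -0.18 for L3mbtl2 and was 0.18 for Kdm2b.

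Over the whole set, 9 Polycomb genes had 40kb and wild-type libraries that did not overlap, 3 higher (Ezh2, Eed and Phc1) and 6 lower (Rbbp7, Yaf2, Pcgf3, Pcgf5, Phc2 and Scmh1). Among all tested genes 36.2% did not overlap in the same comparison, 16.4% higher and 19.7% lower. Against all 8 other libraries, wild type and 70kb alike, Yaf2, Pcgf3, Pcgf5 and Phc2 were lower in every 40kb library, that is 4 of 32, beside 4.52% of all tested genes. No Polycomb gene was higher than in all 8, beside 2.15% of all tested genes.

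**Figure D3:**
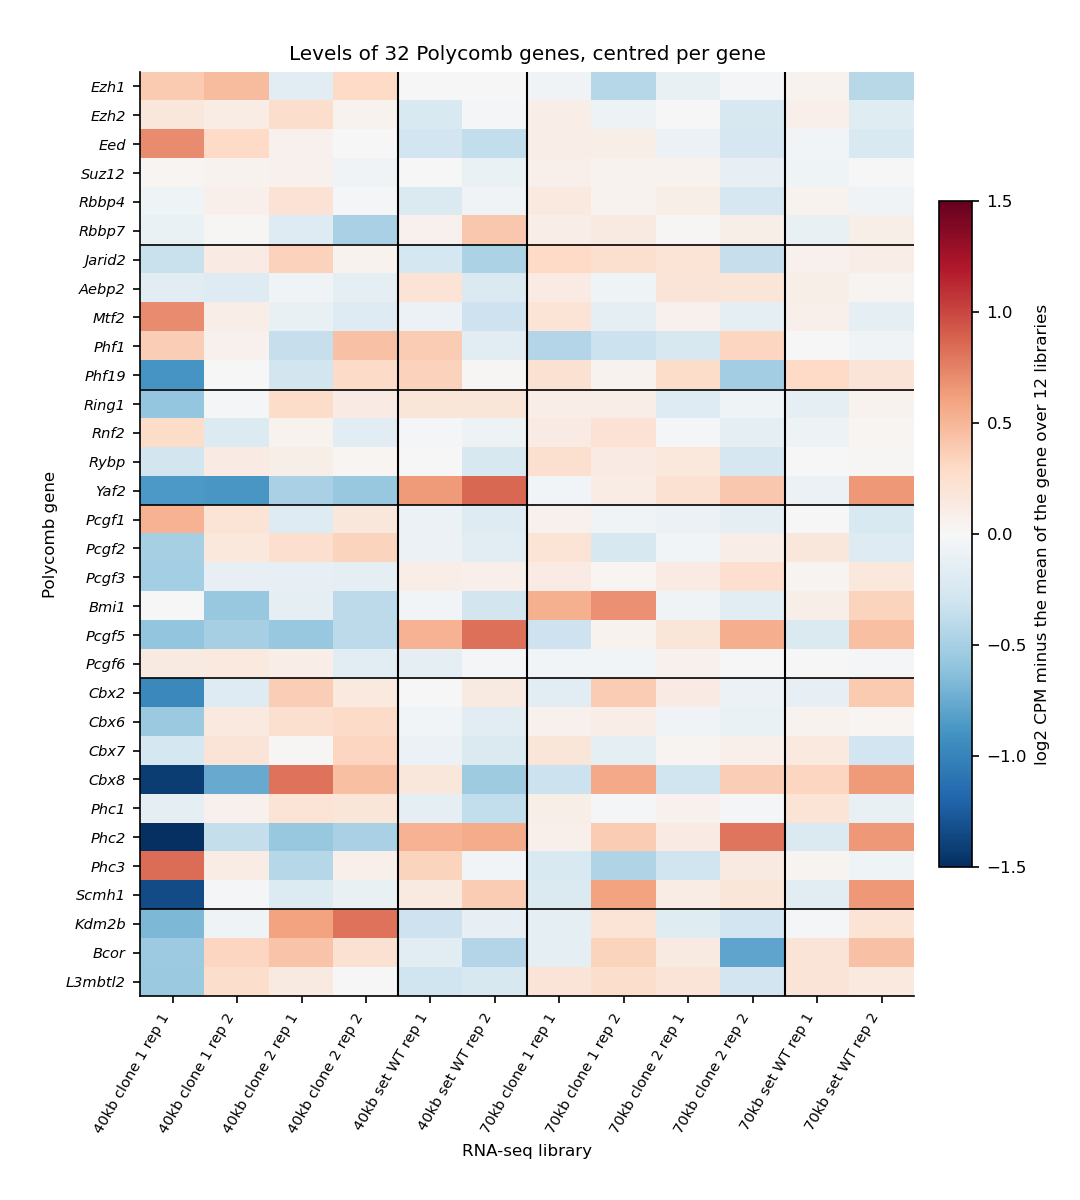
Log2 CPM of each of the 32 Polycomb genes (rows, grouped by complex role) minus its mean over the 12 libraries (columns, grouped by allele and its wild type), with colours saturated beyond ±1.5. The Yaf2, Pcgf5 and Phc2 rows are lowest in the 4 columns of 40kb. The first library of 40kb clone 1 is the lowest of its 4 for 18 genes, beside 36.8% of all tested genes.

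The promoters of 2 of the called genes and of their paralogues are shown because each pair holds a gene that fell beside one that was not called. The windows are from RefSeq on GRCm38.p6, 250 bases before to 50 after the annotated start, in the gene's direction, and where a gene has several the one with the most CpG dinucleotides was taken. Of the 32 genes 28 matched, and Pcgf1, Cbx2, Rybp and Yaf2 did not. Capitals mark matches, on either strand, to any of 6 short motifs, which were the GC box GGGCGG, the E box spelled CACGTG, the TATA box spelled TATAAA, the YY1 core spelled AAGATGG, the ETS core spelled CCGGAAG and the CCAAT box. No motif of the 6 contains another. The windows are chr19:36409498-36409797 on the plus strand for Pcgf5, chr5:108461009-108461308 on the plus strand for Pcgf3, chr4:128727321-128727620 on the plus strand for Phc2 and chr6:122340178-122340477 on the minus strand for Phc1.
Pcgf5: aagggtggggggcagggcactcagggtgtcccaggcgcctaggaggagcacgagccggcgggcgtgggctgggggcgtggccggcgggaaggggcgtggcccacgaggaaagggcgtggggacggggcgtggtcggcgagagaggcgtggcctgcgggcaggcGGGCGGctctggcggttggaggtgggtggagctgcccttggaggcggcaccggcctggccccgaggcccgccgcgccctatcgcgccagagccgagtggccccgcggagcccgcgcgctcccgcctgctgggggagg
Pcgf3: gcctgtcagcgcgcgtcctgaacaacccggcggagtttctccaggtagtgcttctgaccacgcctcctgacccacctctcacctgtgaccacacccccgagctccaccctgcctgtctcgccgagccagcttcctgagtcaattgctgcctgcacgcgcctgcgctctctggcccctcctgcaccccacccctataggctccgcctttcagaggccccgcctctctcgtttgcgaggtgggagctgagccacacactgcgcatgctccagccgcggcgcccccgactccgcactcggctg
Phc2: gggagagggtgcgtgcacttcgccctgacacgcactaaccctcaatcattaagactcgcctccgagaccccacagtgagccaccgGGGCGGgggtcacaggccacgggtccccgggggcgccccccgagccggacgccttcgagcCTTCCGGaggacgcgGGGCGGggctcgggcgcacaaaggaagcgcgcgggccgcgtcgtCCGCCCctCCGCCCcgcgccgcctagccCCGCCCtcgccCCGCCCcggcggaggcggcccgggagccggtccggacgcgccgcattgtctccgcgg
Phc1: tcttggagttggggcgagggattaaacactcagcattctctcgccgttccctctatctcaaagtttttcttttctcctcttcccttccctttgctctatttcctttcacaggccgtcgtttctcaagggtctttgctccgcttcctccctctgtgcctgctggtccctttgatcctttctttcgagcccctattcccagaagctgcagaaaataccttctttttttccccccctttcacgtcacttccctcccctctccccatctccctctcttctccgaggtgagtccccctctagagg

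The pairs differed in composition. The Pcgf5 window held 35 CpG dinucleotides and 78.7% G and C, and the Pcgf3 window 23 and 67.3%. Phc2 held 45 CpG and 77.0% G and C, with 6 matches to GGGCGG and 1 to CCGGAAG, whereas Phc1 held 9 CpG and 52.0% with no match to any motif. Pcgf5 had 1 match to GGGCGG and Pcgf3 none. Phc1 had the fewest CpG of the 28 genes, whose counts ran from 9 to 54 with a median of 27, beside a median of 8 over the most CpG-rich windows of 27025 genes. All 28 had passed the count filter, whereas the 27025 were not limited to genes that had. Whether the difference is particular to Polycomb genes was therefore not tested.

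GGGCGG was present in 21 of the 28 windows (75.0%), beside 35.7% of all 32851 promoter windows and 37.3% of the most CpG-rich windows of the 27025 genes. Neither background was limited to genes that passed the count filter. CCAAT was in 10, beside 37.4% of all windows, CACGTG in 6, beside 7.15%, AAGATGG in 2, beside 6.34%, CCGGAAG in 1, beside 8.86%, and TATAAA in none, beside 13.6%. These matches describe letters in a window and no binding was measured. High CpG content was shared by Polycomb genes that fell and that did not. Phc2, which fell, held 45 CpG, beside 49 in Kdm2b and 41 in Suz12, which did not fall. Scmh1 held 54 and was lower without a call.

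The 70kb allele showed no called change among the 32 genes, where 0% of all tested genes were called. No Polycomb gene had an unadjusted p under 0.05, beside 0.601% of all tested genes, and DESeq2 also called none of the 32. The log2 fold changes ran from -0.38 (Bcor, SE 0.29) to 0.10 (Eed, SE 0.18), with a median of 0.02, beside 0.00456 over all tested genes. In no gene did the edited and wild-type libraries separate, beside 5.48% of all tested genes.

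The genes that fell in 40kb overlapped with wild type in this set. Yaf2 had 6.33 and 6.99 CPM for 70kb clone 1 and 7.63 and 8.61 CPM for clone 2, against 6.09 and 10.2 CPM in wild type (log2 fold change -0.14, 95% interval -0.65 to 0.37). Pcgf5 had 11.6 and 14.9 CPM for clone 1 and 16.3 and 21.0 CPM for clone 2, against 12.4 and 19.8 CPM in wild type (-0.01, 95% interval -0.52 to 0.50). Phc2 had 20.4 and 25.2 CPM for clone 1 and 20.9 and 33.6 CPM for clone 2, against 16.6 and 30.3 CPM in wild type (0.09, 95% interval -0.58 to 0.77). The wild-type libraries of this set were further apart than those of the 40kb set in all 3 genes. Bcor, the lowest of the 32, had 58.8 and 82.1 CPM for clone 1 and 71.7 and 37.8 CPM for clone 2, against 74.4 and 88.5 CPM in wild type.

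Whether the alleles differ in their effect was tested as the 40kb effect minus the 70kb effect. No Polycomb gene was called, as for 0% of all tested genes, and 4 had an unadjusted p under 0.05, beside 12.8% of all tested genes. Those were Yaf2 at -1.30 (SE 0.34, edgeR adjusted p = 0.17), Pcgf5 at -1.18 (SE 0.33, adjusted p = 0.19), Phc2 at -1.30 (SE 0.44, adjusted p = 0.23) and Rbbp7 at -0.51 (SE 0.21, adjusted p = 0.31), all on the log2 scale. The largest positive difference was Bcor at 0.84 (SE 0.41, edgeR adjusted p = 0.43). DESeq2 called 2 of them, Yaf2 (adjusted p = 0.0147) and Pcgf5 (adjusted p = 0.0405).

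In the 70kb set the replicate labels carry the codes 13 and 14, 1 library of each for clone 1, clone 2 and wild type, and the meaning of the codes was not given in the sources used here. In all 3 pairs 7 Polycomb genes were higher in code 14 (Rbbp7, Ring1, Yaf2, Pcgf5, Cbx8, Phc2 and Scmh1) and 9 were lower, while among all tested genes 23.1% were higher and 21.8% lower in all 3. Pcgf5 in code 14 was 1.28-fold its level in code 13 in clone 1, 1.29-fold in clone 2 and 1.59-fold in wild type. Phc2 was 1.23-fold, 1.61-fold and 1.82-fold, and Yaf2 1.10-fold, 1.13-fold and 1.68-fold. These 3 genes differed between libraries of 1 genotype too.

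Libraries with low fibroblast and trophoblast markers also had low levels of the 3 genes. A score per library, the mean centred log2 level of the 23 tested markers of both types, was -2.22 to -0.74 in 40kb and 1.25 and 1.62 in its wild type, and -0.69 to 1.95 in 70kb and -0.25 and 1.24 in its wild type. Of the 70kb libraries, the one with the lowest score had the lowest Pcgf5 and Yaf2 levels, 11.6 and 6.33 CPM, and the one with the highest score had the highest, 21.0 and 8.61 CPM. With the score as a covariate the 40kb log2 fold changes were -0.75 (SE 0.32) for Yaf2, -0.27 (SE 0.24) for Pcgf5 and -0.16 (SE 0.38) for Phc2, and no gene of the table was called. The score separates 40kb from its wild type without overlap, so allele and markers cannot be told apart within that set.

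**Figure D4:**
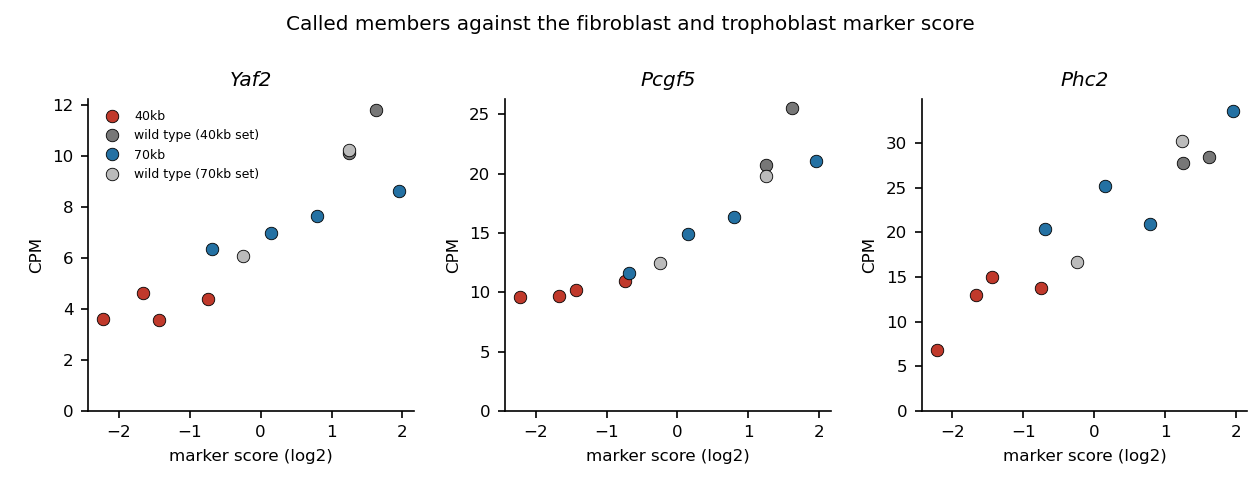
CPM (y axis, from 0) of Yaf2, Pcgf5 and Phc2 in each of the 12 libraries against the fibroblast and trophoblast marker score (x axis, mean centred log2 level of 23 genes), coloured by group. The 40kb libraries lie at scores of -2.22 to -0.74 and low levels, and within the 70kb set libraries with higher scores also have higher Pcgf5.

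The wild-type libraries of both sets were compared with each other to show how far the genes differ without an edit. Their names differ (E14 and E14.2), so a difference between stocks may be part of this comparison and was not tested. None of the 32 was called by edgeR or DESeq2, as for 0% of all tested genes by edgeR, and none had an unadjusted p under 0.05, beside 2.37% of all tested genes. The 40kb-set wild type did not overlap with the 70kb-set wild type in 13 Polycomb genes, 2 higher (Ring1 and Pcgf5) and 11 lower, beside 40.2% of all tested genes, 19% higher and 21.2% lower. Pcgf5 had the highest value, with 20.8 and 25.5 CPM in the 40kb-set wild type, against 12.4 and 19.8 CPM in the 70kb-set wild type (log2 fold change 0.52, SE 0.27). Bcor had the lowest, with 57.8 and 47.8 CPM, against 74.4 and 88.5 CPM (-0.62, SE 0.34). Set against the 70kb-set wild type, the 40kb log2 fold changes were -1.01 for Yaf2, -0.67 for Pcgf5 and -0.95 for Phc2, with edgeR adjusted p of 0.16, 0.26 and 0.23. Against all 4 wild-type libraries together the 3 genes were called, at -1.24, -0.96 and -1.09.

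The largest differences between the 40kb clones were in Kdm2b and Cbx8, and they were not called by edgeR. Between clone 1 and clone 2 of 40kb no Polycomb gene was called, beside 0.0661% of all tested genes, and 7 had an unadjusted p under 0.05, beside 16.6%. Kdm2b had 69.6 and 106 CPM for clone 1, against 168 and 196 CPM for clone 2 (log2 fold change -1.05, SE 0.21, edgeR adjusted p = 0.0687). The wild-type values of 89.6 and 102 CPM lay with clone 1. DESeq2 called this difference (adjusted p = 0.000585), among 558 genes that it called over the table. Against wild type, clone 2 alone gave a call for Kdm2b, higher by 0.93 on the log2 scale (edgeR adjusted p = 0.0415), among 530 genes called. Clone 1 alone gave -0.13 for Kdm2b.

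The readers Cbx2 and Cbx8 had lower levels in clone 1 than in clone 2. Cbx2 had 12.9 and 22.0 CPM for clone 1, against 32.5 and 27.9 CPM for clone 2 (log2 fold change -0.79, SE 0.27). Cbx8 had 6 and 8 counts in clone 1, against 26 and 18 counts in clone 2 (-1.70, SE 0.51, edgeR adjusted p = 0.18), the lowest value of the 32 genes. On the other side Phc3 (0.67, SE 0.26), Mtf2 (0.59, SE 0.20) and Eed (0.49, SE 0.15) were higher in clone 1, and none of these differences was called. The 3 genes that fell in 40kb gave -0.06 (SE 0.25) for Pcgf5, -0.30 (SE 0.37) for Phc2 and -0.34 (SE 0.26) for Yaf2 between the clones.

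Between the 70kb clones no Polycomb gene was called by edgeR or DESeq2, beside 0.012% of all tested genes by edgeR, and 1 had an unadjusted p under 0.05, beside 9.49%. Bmi1 had the largest positive difference, with 15.8 and 17.6 CPM for clone 1, against 10.5 and 9.66 CPM for clone 2 (log2 fold change 0.72, SE 0.22, edgeR adjusted p = 0.34). Pcgf5 had the largest negative one, at -0.49 (SE 0.25, edgeR adjusted p = 0.57).

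**Figure D5:**
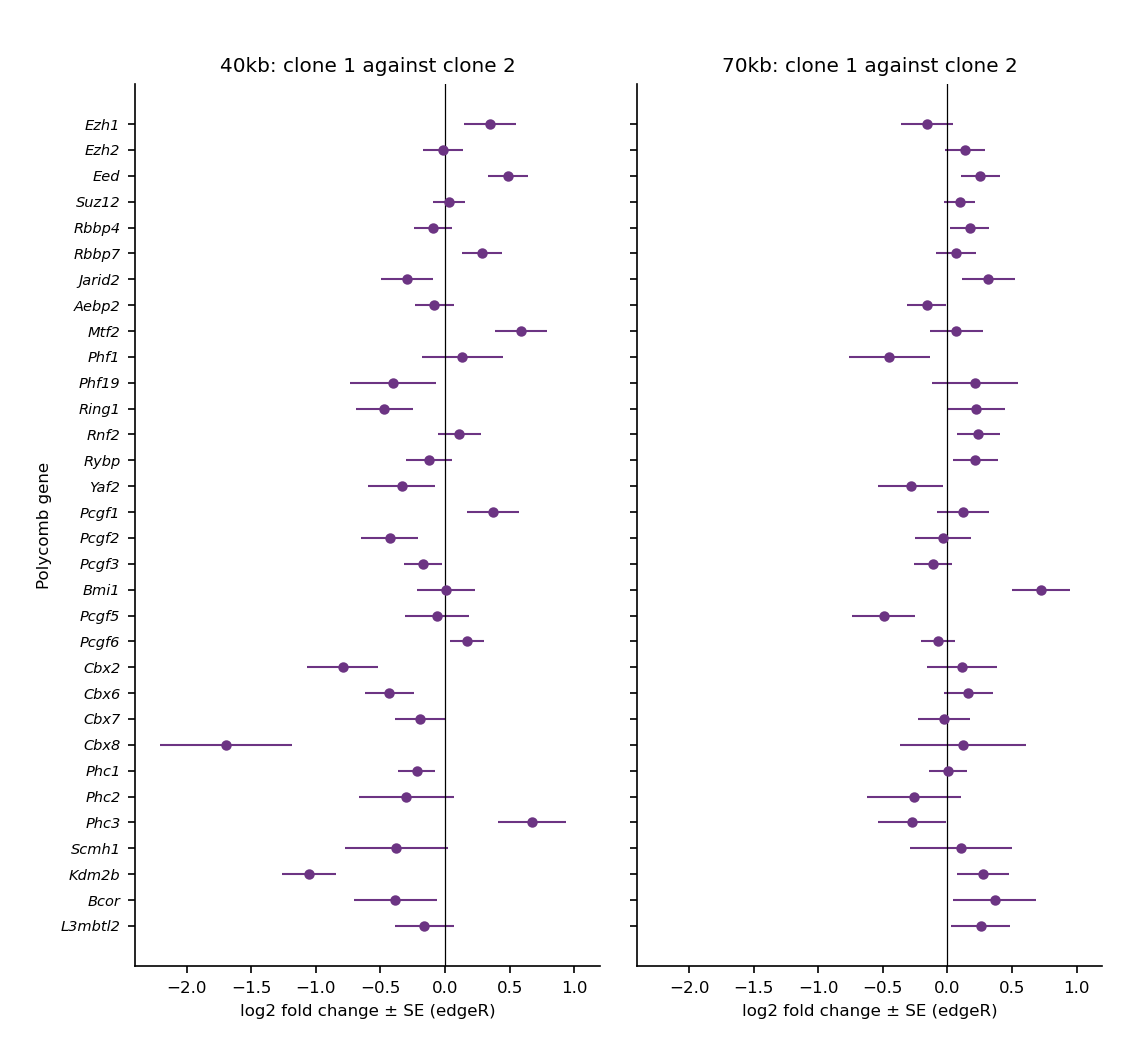
Log2 fold changes (x axis, ± SE from edgeR) of clone 1 against clone 2 for the 32 Polycomb genes (rows) in the 40kb allele (left) and the 70kb allele (right). Cbx8 and Kdm2b lie lowest on the left, at -1.70 and -1.05, and Bmi1 highest on the right, at 0.72.

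Other genes that act with or against these complexes were counted too. Of 36 other Polycomb pathway genes, such as deubiquitinases, demethylases and further partners, 1 was called in 40kb (2.78%), beside 6.43% of all tested genes. Sfmbt2, an imprinted Polycomb-group gene with a role in the placenta, had 48.3 and 79.4 CPM for clone 1 and 34.1 and 53.4 CPM for clone 2, against 125 and 175 CPM in wild type. It fell 2.79-fold (log2 fold change -1.48, SE 0.26, edgeR adjusted p = 0.0175), beside a median of 0.04 for its list. The summed trophoblast and fibroblast markers were low in the same libraries. With their score as a covariate no gene of the table was called, Sfmbt2 included, so that fit shows nothing particular to Sfmbt2. None of 16 Trithorax group genes, which oppose Polycomb silencing, was called by edgeR, 3 had an unadjusted p under 0.05, beside 23.5% of all tested genes, and their median was 0.11.

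Of 33 developmental regulators known as Polycomb targets in ES cells, 23 passed the filter and 4 fell in 40kb: T, Cdx2, Fgf8 and Cdkn2a, with no rise. That is 17.4% called, beside 6.43% of all tested genes, of which 5.67% were lower. The low-count filter accepts counts from any group, so a gene near 0 in 40kb, such as Cdx2, can pass through the others. Such a gene could hardly be called other than lower, which limits what the share and the lack of a rise show. T, the mesoderm factor brachyury, had 0.411 to 1.71 CPM in 40kb, against 4.53 and 27.3 CPM in wild type (edgeR adjusted p = 0.0259). Cdx2, a factor of trophoblast and hindgut, had 0 to 0.224 CPM, against 0.733 and 2.30 CPM (edgeR adjusted p = 0.024). Fgf8, a growth factor of the primitive streak, had 0.206 to 0.811 CPM, against 3.00 and 10.6 CPM (edgeR adjusted p = 0.0201). Cdkn2a, the Ink4a/Arf locus, had 1.46 to 2.65 CPM in 40kb, against 4.03 and 6.45 CPM (log2 fold change -1.41, SE 0.29, edgeR adjusted p = 0.0214). Cdx2 is also one of the trophoblast markers above, and the median of the 23 regulators was -1.04. The fibroblast and trophoblast markers were low in the same libraries, and with their score as a covariate none of these genes was called. No gene of the table was called without either library of the 40kb-set wild type, or against the 70kb-set wild type, so these 4 calls and that of Sfmbt2 ended there too. In the 70kb comparison none of the genes of these 3 lists was called.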

How the data were processed

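PolyA RNA of the 12 libraries was prepared with a stranded Illumina TruSeq mRNA kit, per the labels' protocols. The deposited table holds raw counts per gene made by the authors. The submitters' processing notes name STAR and edgeR, without versions, and the build mm9, and the counting tool and its strand setting are not given in the sources used here. Reads of Xist and of its antisense gene Tsix therefore may not be fully separated. Groups were taken from the sample titles, and symbols were matched to 32620 of 37310 identifiers.

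The edgeR package (4.0.16, under R 4.3.3) was used for testing. Low counts were filtered with filterByExpr by group, sizes were scaled with TMM factors, and the quasi-likelihood F test was taken from 1 model of 4 group means over all 12 libraries (8 residual degrees of freedom, biological coefficient of variation 23.8%). Clones were compared in a fit with a mean per clone (6 residual degrees of freedom). p-values were adjusted by Benjamini-Hochberg over all 16636 genes, with a threshold of 0.05. DESeq2 1.42.0 was an alternative, and the others are given in the closing section. The scripts were tested on simulated data. Intervals are 95% intervals of the fit.

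The members and gene lists were chosen with earlier results of these data known. Every member may be named. Full statistics were given for called members and for the largest rise and fall of each comparison. Of other lists, called genes were named. Promoter windows and the printed pairs were chosen after values were seen.

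The codes 13 and 14 pair the libraries of the 70kb set. Deviations of same-coded libraries correlated at 0.21, 0.68 and 0.27 over the 3 pairs. Same-numbered libraries of different sets, which share no code, reached 0.37. That is above 0.21 and 0.27 but below the 0.68 of 70kb clone 1 with wild type. Taken over the 3 pairs, such correlations do not settle whether the codes pair the libraries. A block on the code changed no call in that set.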

Additional observations from a re-analysis of the deposited data

Results flagged for a closer look

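In groups of 4 libraries, 4 of 64 combinations of gene and allele had a library far from the other 3, and chance gives about 1 in 20. Suz12 stood at 283 CPM in the second library of 70kb clone 2, against 320 to 323 CPM in the other 70kb libraries. L3mbtl2 stood at 150 CPM (149.8) in the same library, against 209 to 219 CPM. Pcgf3 stood at 59.4 CPM in the first library of 40kb clone 1, against 76.7 to 77.6 CPM in the other 40kb libraries, and all 4 values were below both wild-type libraries. Pcgf6 stood at 82.5 CPM in the second library of 40kb clone 2, against 99.5 to 103 CPM.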

How the results depend on the processing

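In 40kb against its wild type, 3 Polycomb genes were called in the main analysis. The count was 0 with counts summed per clone, with the wild type of the other set and with the marker score as covariate, and 0 to 4 with each library left out, 0 without either wild-type library. Genes called over the table were 1070, and 1874 with DESeq2, 3 summed per clone, 2476 with clone 1 alone, 530 with clone 2 alone, 0 with the other wild type, 0 with the marker score and 0 to 1099 with each library left out. With the replicate block by code the counts were 2 Polycomb genes and 357 genes, and Pcgf5 had an edgeR adjusted p of 0.0515. That block leaves only the second library of each 40kb clone to inform the 40kb effect. With the replicate block by title number they were 3 and 1614. Same-numbered libraries of that set correlated at 0.17, 0.05 and -0.09, and same-numbered libraries of different sets at up to 0.37. These correlations cannot show whether the numbers pair the libraries. By code, the first wild-type library goes with the second library of 40kb clone 1, so title numbers and codes pair this set differently. No other call on a Polycomb gene was changed by a block.

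In 70kb, no Polycomb gene was called under any alternative, and genes over the table were 1 without the filter, 3 with DESeq2, 1 with clone 1 alone and 1 with all 4 wild-type libraries. For the difference of both effects, DESeq2 called 2 Polycomb genes and 399 genes, and 10 genes were called without the filter and 0 to 1 with each library left out. Between the 40kb clones, 3 Polycomb genes (Mtf2, Cbx2 and Kdm2b) were called without the filter and 1 (Kdm2b) with DESeq2, and genes over the table were 11, and 24 without TMM factors, 1317 without the filter and 558 with DESeq2. Between the 70kb clones they were 2, and 741 without the filter and 183 with DESeq2. The cause of these changes was not tested, apart from fewer libraries where some were left out, summed or set aside by the code block. No called result reversed its direction. The 2 wild-type libraries per set and, for Cbx8, counts of 6 to 26 limit what could be detected.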
